A study of Homo sapiens with 78 samples.

Results

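The 10 heat shock and chaperone genes HSPA1A, HSPA1B, DNAJB1, HSPB1, HSP90AA1, HSPA8, HSP90AB1, HSPA5, HSPD1 and HSPE1 were chosen by name, as the best known members of the main chaperone families, from the 58388 named genes of the deposited transcript tables. Their levels were compared between sorted single cells of the melanoma line A375 and of Jurkat clone E6-1, a T cell leukemia line, both of human origin. The labels name no heat or drug treatment. A375 had been grown in DMEM and Jurkat in RPMI, both with fetal bovine serum, and live cells were picked by FACS after staining with 7-AAD and with an antibody against CD47 (A375) or CD81 (Jurkat). A375 cells were received in PBS and Jurkat cells in a lysis solution with RNase inhibitor, so that cell line, medium, antibody and sort buffer cannot be told apart in any comparison between the lines. Libraries of total RNA came from reagents of either the SMARTer Stranded Pico Input v2 kit (#634413) or the SMART-Seq Stranded Kit (#634444), which gave 21 A375 and 18 Jurkat cells per kit. The labels name no separate cultures, so each group of cells of 1 line and 1 kit counts as 1 sample. Differences between groups are therefore given as ratios with no p-value.

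Molecular chaperones bind unfolded or partly folded proteins and keep them from aggregating, most of them through cycles of ATP binding and hydrolysis. Under heat or other proteotoxic stress, heat shock factor 1 forms trimers, binds heat shock elements, which are repeats of the unit GAA in alternating orientation, and switches on the stress-induced chaperones. Unfolded protein in the endoplasmic reticulum is answered by a separate set of genes with its own promoter element, and constitutive chaperones work in every growing cell.

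Heat shock elements were looked for in the RefSeq promoter windows of GRCh38.p14, which run from 250 bases before to 50 bases after each annotated start, because these are the letters that the stress-induced and constitutive members share or lack. All 10 genes had a window there, 16 windows in all. A run of 3 units, spelled GAANNTTCNNGAA or TTCNNGAANNTTC, which are each other's reverse complement, lay in windows of 4 of the 10 genes, against 0.608% of 27305 genes and 0.490% of 35116 windows. A run of 2 units, GAANNTTC or TTCNNGAA, each its own reverse complement and contained in the longer motif, lay in windows of 8 of the 10 genes, against 16.2% of all genes and 13.5% of all windows. HSPA5 and HSPE1 held neither motif in their windows. For HSPE1 this depends on the window, which begins at chr2:197500129. The HSPD1 stretch printed below ends at 197500090, upstream of HSPE1 and outside that window. Members of the constitutive set, such as HSPA8 and HSP90AB1, carried the longer motif. In HSPA1A, HSPA1B, DNAJB1 and HSPB1 only the shorter one was found. Only units with the exact letters GAA or TTC were looked for. Longer runs with an altered unit were therefore not counted, and these genes may hold such runs. The stretches are written on the strand of the gene, with the letters of the match shown in capitals. Overlapping matches are joined, as in HSPD1, where the capitals run over 18 letters. A further match of the shorter motif in HSP90AA1, ttctggaa, is in lower case, and a further match in DNAJB1, GAAGGTTC, is not printed. HSP90AA1 is shown from chr14:102087097-102087156 (minus strand), HSP90AB1 from chr6:44247754-44247813 and chr6:44247822-44247851 (plus), HSPA8 from chr11:123062346-123062375 and chr11:123062171-123062200 (minus), and HSPD1 from chr2:197500061-197500090 (minus).
HSP90AA1: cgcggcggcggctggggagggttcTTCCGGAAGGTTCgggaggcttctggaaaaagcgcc
HSP90AB1: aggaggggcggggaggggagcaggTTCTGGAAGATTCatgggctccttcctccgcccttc
HSP90AB1: ctgagattgTTCTGGAAGCTTCtggattct
HSPA8: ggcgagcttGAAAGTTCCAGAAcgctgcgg
HSPA8: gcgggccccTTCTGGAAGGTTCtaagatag
HSPD1: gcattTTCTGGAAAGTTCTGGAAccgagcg
The HSPA8 and HSPD1 stretches overlap exons of other transcripts of the same gene. HSPA1A (chr6:31815411-31815470, plus) and HSPA1B (chr6:31827607-31827666, plus) are shown because their stretches of 60 bases differ at 2 positions, and DNAJB1 (chr19:14518411-14518470, minus) and HSPB1 (chr7:76302465-76302524, plus) complete the stress-induced set.
HSPA1A: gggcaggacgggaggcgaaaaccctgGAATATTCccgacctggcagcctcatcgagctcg
HSPA1B: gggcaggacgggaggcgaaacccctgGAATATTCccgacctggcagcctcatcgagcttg
DNAJB1: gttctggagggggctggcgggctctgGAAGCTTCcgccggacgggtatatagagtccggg
HSPB1: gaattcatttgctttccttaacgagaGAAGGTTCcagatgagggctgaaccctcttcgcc
A match is a description of these letters, and neither binding nor use of a site was measured.

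The depth of the wells set what could be seen. Total estimated counts per well ran from 909 to 2567265, with a median of 813697. The 69 wells with at least 25% of that median (17 and 16 A375 cells and 18 and 18 Jurkat cells for kits #634413 and #634444) are called deep wells, and the other 9 were all A375. Levels are given as CPM, the counts of a gene for each 1000000 protein coding counts of the well, and group levels as CPM of the counts summed over all wells of a group. Among the deep wells, 3 counts corresponded to between 1.56 and 267 CPM. Intervals are exact 95% intervals and cover counting error only, since reads amplified by PCR without molecular identifiers are not independent molecules. In 3 deep A375 wells protein coding genes held less than 50% of the counts, namely replicate 8 (4.84%) and replicate 11 (10.5%) of kit #634413 and replicate 10 (44.4%) of kit #634444. The lowest values in A375 with kit #634413 came in part from the first 2 of these, in which most of the 10 genes were at 0. In the check of the labels, 8 T cell markers summed to 1035–2346 and 1413–3711 CPM in deep Jurkat wells and to 0–308 and 0–76.4 CPM in deep A375 wells, for kits #634413 and #634444. The 8 melanoma line markers summed to 178–3464 and 448–7353 CPM in A375 and to 0–63.8 and 0–85.6 CPM in Jurkat, and every deep well held more of the marker set of its own line. CD3D and CD3E were at 0 in A375 with both kits, and PMEL and CAV1 were at 0 in Jurkat with both kits. Wells of a group carry neighbouring indexes and the pools of 8 libraries are not named, so differences between pools and between groups cannot be told apart.

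**Figure D1:**
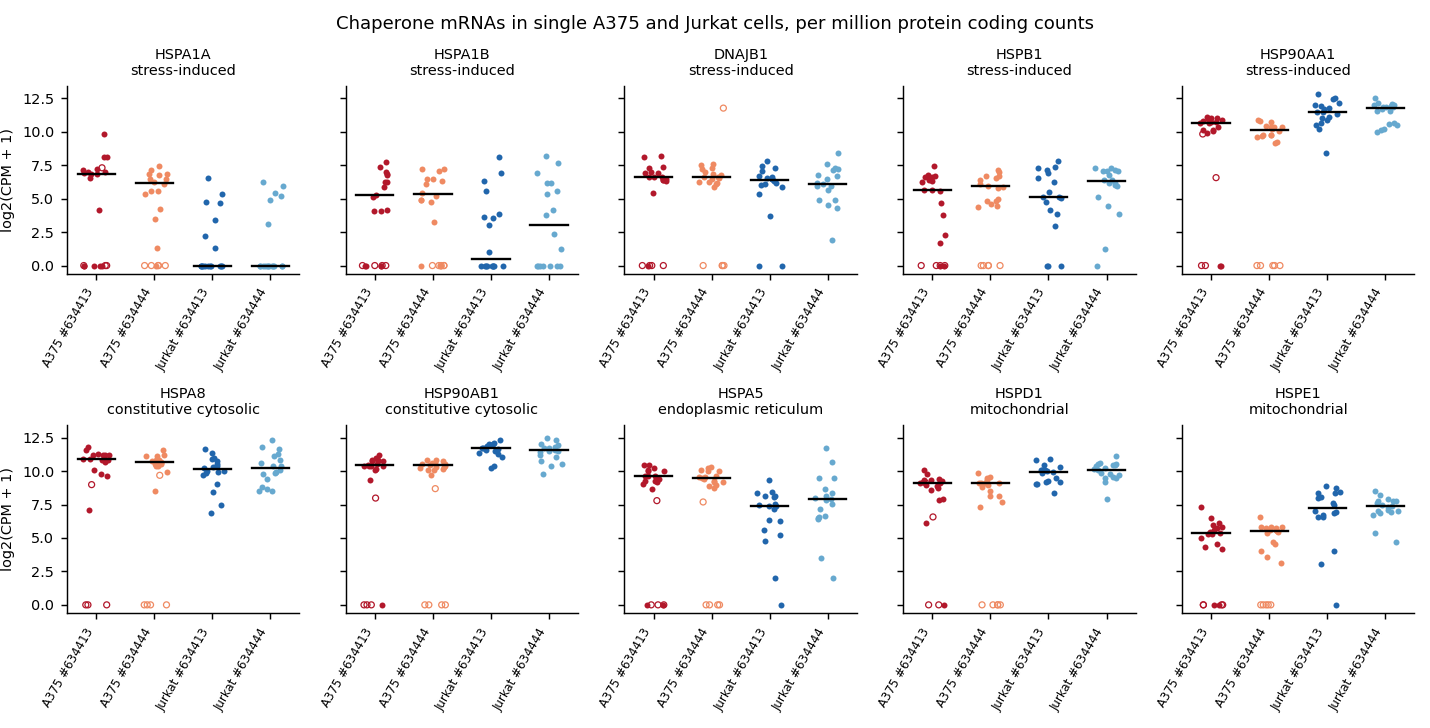
Level of each of the 10 genes in every well, as log2(CPM + 1) on the vertical axis, for the 2 cell lines and 2 kits. Filled points are the 69 deep wells, hollow points the 9 shallow wells, and the line is the median of the deep wells. HSP90AB1 and HSPE1 sit higher in Jurkat, HSPA5 and HSPA1A higher in A375, and many cells lie at 0 for HSPA1A and HSPA1B.

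HSPA1A and HSPA1B encode the inducible cytosolic HSP70, the chaperone most closely tied to the heat shock response, from a pair of neighbouring genes on chromosome 6 (31815543–31817946 and 31827738–31830254, plus strand). HSPA1A was seen mainly in A375. The lowest, median and highest deep well held 0, 116 and 923 CPM in A375 and 0, 0 and 91.02 CPM in Jurkat with kit #634413. With kit #634444 they held 0, 72.6 and 173 CPM in A375 and 0, 0 and 74.6 CPM in Jurkat. HSPA1A was at 0 in 5 of 17 and 1 of 16 deep A375 wells and in 11 and 12 of 18 Jurkat wells, and 11 and 8 A375 wells lay above every Jurkat well. The value of 923 CPM came from replicate 11 of kit #634413, 1 of the wells with few protein coding counts. Summed over wells, HSPA1A was 11.2-fold (interval 9.33–13.8) and 3.62-fold (3.07–4.30) higher in A375. HSPA1B held 0, 36.9 and 215 CPM in A375 and 0, 0.515 and 274 CPM in Jurkat with kit #634413, and 0, 39.01 and 150 CPM against 0, 8.43 and 287 CPM with kit #634444. Its highest cells were thus Jurkat cells, while its medians were higher in A375. The summed ratio was 3.46-fold (3.05–3.94) with kit #634413 and 1.06-fold (0.94–1.19) with kit #634444. The latter was 1.85-fold without replicate 2 of Jurkat, a well of 1205430 counts that held 47.7% of the HSPA1B counts of its group.

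Reads of the HSP70 pair could not be kept apart with certainty. Of the 31-base words in HSPA1A transcripts, 76.01% also occurred in HSPA1B, and 73.3% of those of HSPA1B occurred in HSPA1A. Among wells with at least 10 counts for the pair, 25 of 49 gave over 90% or under 10% of them to HSPA1A. The values of the sum are not touched by this split. As 1 gene, the pair held 0, 154 and 923 CPM in deep A375 wells and 0, 9.08 and 365 CPM in Jurkat wells with kit #634413. With kit #634444 it held 1.48, 133 and 289 CPM in A375 and 0, 38.1 and 362 CPM in Jurkat. Inducible HSP70 was 5.53-fold higher in A375 with kit #634413 and 1.70-fold higher with kit #634444, and the call of at least 2-fold with both kits, made for HSPA1A alone, did not hold for the sum over all wells. The second ratio rested on Jurkat replicate 2 of kit #634444, without which it was 2.83-fold and the call held.

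DNAJB1, the HSP40 that loads clients onto HSP70, and HSPB1, the small heat shock protein HSP27, differed little between the lines. DNAJB1 (chromosome 19, 14514769–14529803, minus strand) held 0, 97.0 and 290 CPM in A375 and 0, 82.9 and 226 CPM in Jurkat with kit #634413, and 58.8, 99.5 and 191 CPM against 2.67, 69.2 and 347 CPM with kit #634444. A single shallow A375 well of kit #634444 reached 3505 CPM. The summed log2 ratio of A375 over Jurkat was 0.48 and 0.02 for DNAJB1. HSPB1 (chromosome 7, 76302673–76304295, plus strand) held 0, 49.7 and 177 CPM in A375 and 0, 34.3 and 223 CPM in Jurkat with kit #634413. With kit #634444 it held 19.5, 59.7 and 142 CPM in A375 and 0, 77.6 and 153 CPM in Jurkat. The log2 ratio of HSPB1 was 0.10 and -0.25, and the middle 50% of the cells overlapped between the lines for both genes with both kits.

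HSP90AA1, the stress-responsive cytosolic HSP90, was lower in A375. This gene (chromosome 14, 102080742–102139699, minus strand) held 0, 1638 and 2169 CPM in A375 and 340, 2878 and 7180 CPM in Jurkat with kit #634413. The second kit gave 579, 1118 and 1871 CPM in A375 and 997, 3482 and 6075 CPM in Jurkat. In both kits 12 of 18 Jurkat cells lay above every deep A375 cell, although the ranges overlapped. HSP90AA1 was 2.06-fold (2.02–2.09) and 2.81-fold (2.75–2.87) lower in A375. With kit #634413 the ratio slipped below 2-fold, to between 1.92 and 1.999, without any 1 of A375 replicate 14 and Jurkat replicates 1, 3, 7 and 15.

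Among the constitutive cytosolic chaperones, HSP90AB1 differed between the lines and HSPA8 did not reach 2-fold. HSP90AB1 (chromosome 6, 44246166–44253888, plus strand), the HSP90 that is made at a steady level in growing cells, held 0, 1408 and 2405 CPM in A375 and 1217, 3409 and 5231 CPM in Jurkat with kit #634413. The cells of kit #634444 held 831, 1386 and 1854 CPM in A375 and 886, 2992 and 5608 CPM in Jurkat. The gene was 2.15-fold (2.11–2.18) and 2.10-fold (2.06–2.14) lower in A375, and 15 and 14 of 18 Jurkat cells lay above every deep A375 cell. Its spread in A375 with kit #634444 was narrow, with a coefficient of variation of 0.20 over 16 cells. HSPA8 (chromosome 11, 123057489–123063230, minus strand), the constitutive HSC70, held 137, 1908 and 3516 CPM in A375 and 115, 1124 and 3169 CPM in Jurkat with kit #634413. With kit #634444 it held 365, 1609 and 3015 CPM against 357, 1200 and 5209 CPM. Its log2 ratio was 0.38 and 0.00, so the sums were within 1.5-fold of each other with both kits.

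HSPA5 encodes BiP, the HSP70 of the endoplasmic reticulum and a standard readout of the unfolded protein response. This gene (chromosome 9, 125234853–125241343, minus strand) was higher in A375, and Jurkat cells varied widely. It held 0, 788 and 1416 CPM in A375 and 0, 166 and 646 CPM in Jurkat with kit #634413, where 10 of 17 A375 cells lay above every Jurkat cell. With kit #634444 it held 421, 728 and 1288 CPM in A375 and 2.92, 237 and 3313 CPM in Jurkat, and the 2 highest cells of both lines were Jurkat cells. HSPA5 was 5.004-fold (4.78–5.24) higher in A375 with kit #634413 and 1.56-fold (1.51–1.61) with kit #634444. The second ratio became 2.21-fold without replicate 5 of Jurkat, a single cell that held 33.3% of the HSPA5 counts of its group.

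Of the mitochondrial chaperonin genes, HSPE1 was lower in A375 with both kits and HSPD1 did not reach 2-fold. HSPD1 (chromosome 2, 197486584–197516737, minus strand) encodes HSP60, which forms the folding chamber of the mitochondrial matrix, and HSPE1 (chromosome 2, 197500140–197503449, plus strand) encodes HSP10, its lid. The genes lie head to head, with RefSeq starts 105 or 539 bases apart depending on the HSPD1 transcript. HSPE1 held 0, 39.9986 and 155 CPM in A375 and 0, 154 and 479 CPM in Jurkat with kit #634413, and 7.62, 45.4 and 92.1 CPM against 25.3, 164 and 373 CPM with kit #634444. A375 was 3.96-fold (3.63–4.34) and 3.49-fold (3.16–3.88) lower for HSPE1, and 9 and 16 of 18 Jurkat cells lay above every deep A375 cell. HSPD1 held 0, 542 and 1072 CPM in A375 and 322, 994 and 1904 CPM in Jurkat with kit #634413. Kit #634444 gave 160, 543 and 908 CPM in A375 and 241, 1113 and 2247 CPM in Jurkat. HSPD1 was 1.72-fold (1.67–1.77) and 1.98-fold (1.92–2.05) lower in A375, and the second value passed 2-fold, up to 2.13, when any 1 of 10 wells was left out. Transcripts that join HSPE1 to the next gene, MOB4, held 340 counts over all wells against 5366 for HSPE1.

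In all, 3 of the 10 genes were at least 2-fold lower and 3 at least 2-fold higher in A375 with kit #634413, where 22.3% and 30.9% of 13975 genes with at least 100 counts were so. With kit #634444, 3 were lower and 1 higher, against 20% and 28.8% of 13375 genes. HSP90AA1, HSP90AB1 and HSPE1 were lower and HSPA1A higher with both kits, against 14.5% lower and 22.5% higher among 12748 genes. Differences of this size were thus common between the lines, and the counts of the 10 genes do not set them apart from the other genes. The median log2 ratio of the 10 genes was 0.24 and -0.12, beside 0.17 and 0.12 over all genes. The ranges of the deep wells overlapped between the lines for each of the 10 genes with both kits. The middle 50% of the cells lay apart with both kits for HSP90AA1, HSP90AB1, HSPA5 and HSPE1. The share of all genes apart in this way is not given, so this does not set the 10 genes apart either. Together the 10 genes held 0.676% of the protein coding counts of A375 and 0.945% of those of Jurkat with kit #634413, and 0.586% and 0.972% with kit #634444.

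**Figure D2:**
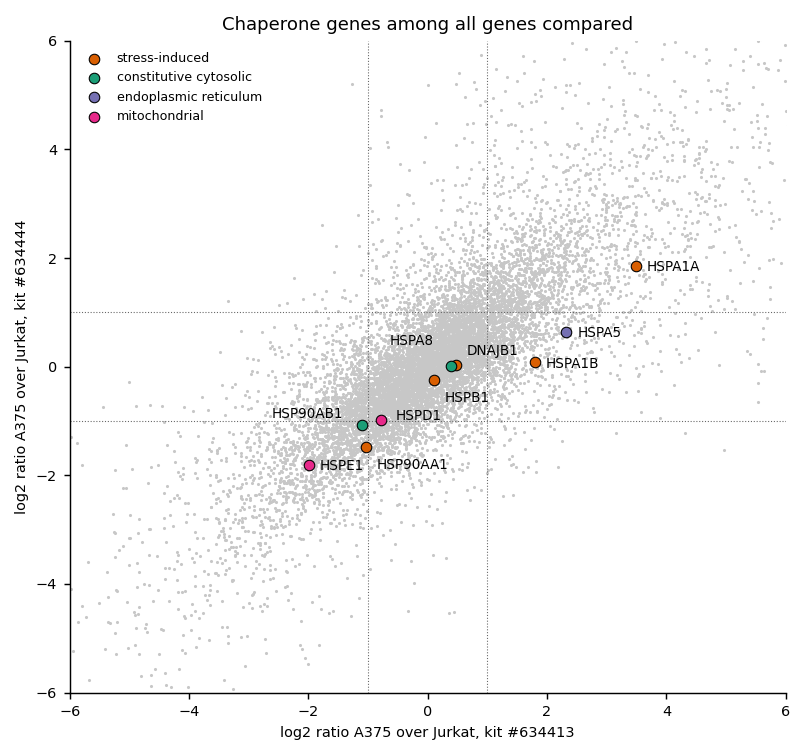
Log2 ratio of A375 over Jurkat with kit #634413 (horizontal) and kit #634444 (vertical), from summed CPM. Grey points are all genes with at least 100 counts, of which 1494 of 12748 lie beyond 6 on an axis and are not drawn, coloured points are the 10 genes by class, and dotted lines mark 2-fold. HSPE1, HSP90AA1 and HSP90AB1 lie at the lower left and HSPA1A at the upper right, and HSPA1B and HSPA5 lie to the right with kit #634413 alone.

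Between the kits, the 10 genes were close in A375. None was 2-fold apart, where 6.06% of 13875 genes were lower and 6.49% higher with kit #634444, and their log2 ratios ran from -0.63 (HSPA1A) to -0.02 (HSPD1). In Jurkat 0 were lower and 3 higher with kit #634444, against 10.1% and 9.39% of 11957 genes. These were HSPA5 at 3.09-fold (2.94–3.25), HSPA1B at 2.17-fold (1.88–2.50) and HSPA1A at 2.005-fold (1.58–2.57). Leaving out 1 cell changed the calls of the HSP70 pair but not that of HSPA5. Without replicate 2, HSPA1A was at 1.38-fold and HSPA1B at 1.24-fold, and without replicate 5, HSPA1B was at 1.81-fold. The call of HSPA1A, at the limit of 2-fold, was also lost without other single wells of either kit. As reads of the pair cannot be kept apart, HSPA1A and HSPA1B are not separate results. Their sum was 2.13-fold higher with kit #634444, and between 1.28-fold and 2.76-fold when any 1 well was left out. HSPA5 stayed at 2.17-fold or more when any 1 well was left out, with the lowest value without replicate 5. Its call did not hold for the medians of the deep wells, 237 and 166 CPM (log2 ratio 0.52). Replicates 5 and 2 held the highest HSPA5 values of kit #634444, at 3313 and 1664 CPM, and were not left out together.

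Levels of different genes were compared in TPM, which is scaled by transcript length. The TPM of a gene therefore depends on how Kallisto split its counts among transcripts of unlike length. Over all wells, 42.9% of HSPB1 counts lay on a transcript of 527 bases and 29.1% on a retained-intron transcript. For HSPE1, 13.1% lay on retained-intron transcripts. In A375 the median over deep wells was highest for HSPA8, at 648 and 552 TPM for kits #634413 and #634444. In Jurkat HSP90AB1 led with kit #634413 (621 TPM) and HSP90AA1 with kit #634444 (555 TPM), with HSP90AA1 at 433 and HSP90AB1 at 533 TPM in the other kit. HSPA8 was at 385 and 311 TPM there. HSPD1 ranked 4, or 3 in Jurkat with kit #634444, at 179 and 153 TPM in A375 and 308 and 335 TPM in Jurkat. HSPA5 came next in A375 (102 and 98.1 TPM) and was near the end of the order in Jurkat (17.7 and 26.6 TPM), below HSPE1 (168 and 137 TPM), HSPB1 (32.9 and 69.03 TPM) and DNAJB1 (19.2 and 34.8 TPM). HSPA1B and HSPA1A closed the order in Jurkat with medians of 0.104 and 0 TPM, and 1.31 and 0 TPM. Most neighbours in the order were not apart, as the middle 50% of the cells of adjacent genes were separate for only 4 and 2 of 9 neighbours in A375 and 1 and 2 of 9 in Jurkat.

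The stress-induced and constitutive cytosolic sets were compared within each cell as the log2 ratio of their summed TPM (HSPA1A, HSPA1B, DNAJB1, HSPB1 and HSP90AA1 over HSPA8 and HSP90AB1). The lowest, median and highest deep well was at -4.97, -0.997 and 0.05 in A375 and at -3.09, -0.68 and 0.23 in Jurkat with kit #634413, and at -1.95, -1.19 and -0.36 against -1.54, -0.58 and 0.44 with kit #634444. Jurkat cells were above the A375 median in 13 and 16 of 18 wells. Without the 3 A375 wells with few protein coding counts, the A375 medians were -0.997 and -1.25 and the lowest value was -1.95 with both kits. Most of the ratio was HSP90AA1, which made up a median of 67.5% and 71.3% of the stress-induced TPM in A375 and 85.8% and 83.4% in Jurkat. Without HSP90AA1, and with 1 TPM added to both sums, the order of the medians turned. The lowest, median and highest deep well was at -4.66, -2.78 and 0.049 in A375 and -6.65, -3.87 and -1.02 in Jurkat with kit #634413. With kit #634444 they were at -3.58, -3.02 and -2.13 in A375 and -4.44, -3.23 and -0.65 in Jurkat. The highest cell of that kit was thus still a Jurkat cell. HSPA1A, HSPA1B and DNAJB1 together had median levels of 76.5 and 56.9 TPM in A375 and 34.3 and 42.2 TPM in Jurkat. HSP90AA1 thus made up most of the stress-induced TPM in both lines. Its level was higher in Jurkat, and the median of inducible HSP70 was higher in A375.

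Co-variation between cells was described with Spearman's rho of CPM within each of the 4 groups, over the deep wells, and averaged over the groups. The points share library preparation, depth and the protein coding total by which they are divided. The 45 pairs of the 10 genes had a median rho of 0.160, beside 0.0344 over all pairs of the 5632 genes that reached 5 counts in 50% or more of the deep wells of each group, and 15 pairs lay above the 95th percentile of all pairs (0.252). HSPA1A and HSPA1B are not among these 5632 genes, and the 28 pairs of the other 8 had a median of 0.236, with 13 above that percentile. Without the 3 A375 wells with few protein coding counts and replicate 5 of Jurkat with kit #634444, the medians were 0.0931 and 0.00659, and 11 pairs lay above the 95th percentile (0.230), while the 28 pairs had a median of 0.119 with 10 above it. HSP90AA1 and HSP90AB1 were the closest pair, with 0.674 on average and 0.695, 0.856, 0.476 and 0.670 in A375 and Jurkat with kit #634413 and A375 and Jurkat with kit #634444. The transcripts of these HSP90 genes share no word of 31 bases. HSP90AA1 and HSPA8 followed (0.543), then HSP90AB1 and HSPD1 (0.519) and HSPD1 and HSPE1 (0.517). In the 65 remaining wells these pairs were at 0.557, 0.420 and 0.405 on average. Their lowest groups were then at 0.387, 0.061 and -0.086. Pairs among HSP90AA1, HSP90AB1, HSPA8 and HSPD1, which all held the run of 3 units, ran from 0.251 (HSPA8 and HSPD1) to 0.674. HSPE1 held no heat shock motif within its window. It was at 0.436 with HSP90AA1, 0.311 with HSP90AB1, 0.333 with HSPA8 and 0.517 with HSPD1, within the same range. A part of the motifs in the co-variation was not tested. As the reads of HSPA1A and HSPA1B cannot be kept apart, their sum was used for the stress-induced genes. It averaged 0.12 with DNAJB1, 0.17 with HSPB1 and 0.07 with HSP90AA1, none of them above 0 in all 4 groups, and 0.33 with HSPE1, above 0 in all 4. Over the 65 wells these were 0.17, 0.17, 0.10 and 0.35.

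**Figure D3:**
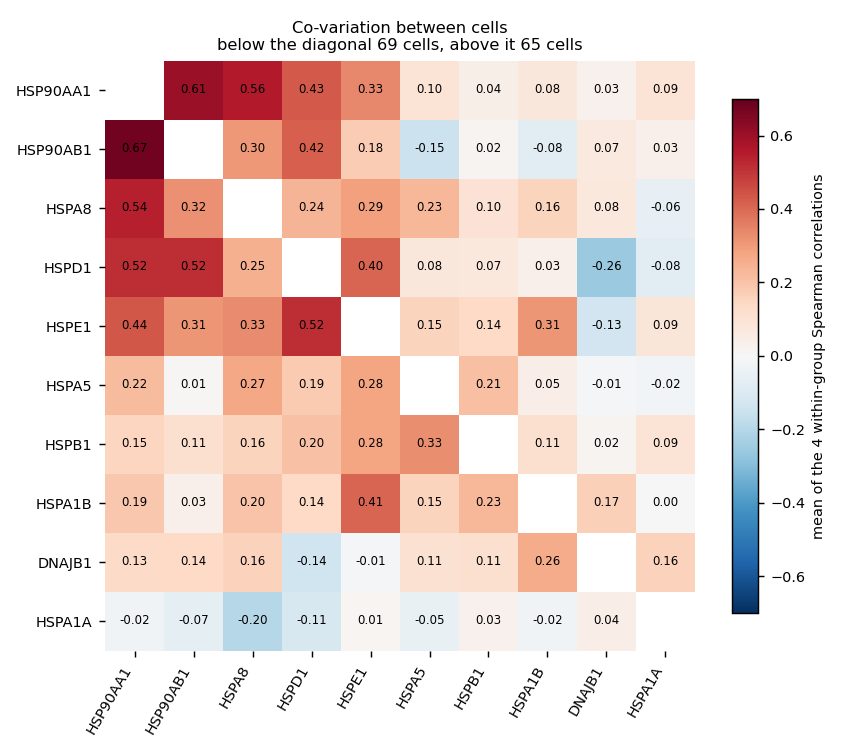
Spearman's rho between cells for each pair of the 10 genes, as colour and number, averaged over the 4 groups. Squares below the diagonal use the 69 deep wells and those above it the 65 wells left without the 3 wells with few protein coding counts and Jurkat replicate 5 of kit #634444. The darkest square is HSP90AA1 with HSP90AB1 (0.674), followed by HSP90AA1 with HSPA8 (0.543).

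Among all 5632 genes, the nearest to HSPA5 was HSP90B1, the HSP90 of the endoplasmic reticulum, with a mean rho of 0.5996, and it ranked first also in the 65 wells (0.553). HNRNPH3 (0.496), NDUFB5 (0.490), PPP4R3B (0.483) and UBE2S (0.478) followed, none of them a chaperone, and ranked between 2 and 13 in the 65 wells. For HSPA8 the nearest were HSP90AA1 (0.543) and DNAJA1 (0.534), an HSP40 co-chaperone, followed by XRCC5 (0.531), SLC35F6 (0.529) and SP110 (0.473). In the 65 wells XRCC5 came first (0.593), HSP90AA1 ranked 2 (0.557) and DNAJA1 ranked 4 (0.530). HSPD1 was nearest to EBNA1BP2 (0.662), a ribosome assembly factor, then TUT1 (0.593), SMARCC1 (0.584), CCT3 (0.577), a subunit of the cytosolic chaperonin TRiC, and MAK16 (0.566). EBNA1BP2 also came first in the 65 wells (0.632), where CCT3 ranked 6 and MAK16 ranked 16. Among the genes nearest to DNAJB1 were NRBP1 (0.454), MFN2 (0.452), KIF20B (0.450) and SUZ12 (0.447), none of them a chaperone. They ranked between 1 and 9 in the 65 wells.

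HSPA5 and HSP90B1 also share a promoter element. The endoplasmic reticulum stress element, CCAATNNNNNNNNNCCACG on either strand, lay in windows of 25 of 27305 genes, HSPA5 and HSP90B1 among them, and in no other of the 10 genes. It is printed for HSPA5 from chr9:125241386-125241415 (minus strand) and for HSP90B1 from chr12:103930210-103930239 and chr12:103930315-103930344 (plus), because this pair had the highest rho of HSPA5 with any gene. Both HSP90B1 stretches overlap exons of other HSP90B1 transcripts, and the first also an exon of TTC41P.
HSPA5: ccttcaCCAATCGGCGGCCTCCACGacggg
HSP90B1: ccctgaCCAATCGGAAGGAGCCACGcttcg
HSP90B1: tgggtgCGTGGTGCGGCGCGATTGGtgggt

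Replicate 5 of Jurkat with kit #634444 stood apart in these genes and was singled out after its values had been seen. HSPA5 was at 3313 CPM in this cell, where the other 17 Jurkat cells of the kit had a median of 233 and a highest value of 1664 CPM. HSP90B1 was at 4626 CPM (median and highest of the others 481 and 1653), and MANF, a secreted factor of the unfolded protein response, at 347 CPM (others 23.4 and 119). DNAJB1, HSPB1, HSP90AA1, HSPA8 and HSPE1 were also highest of the 18 cells there, at 347, 153, 6075, 5209 and 373 CPM, while HSPA1A was at 0. HERPUD1, ATF4 and DDIT3, further genes of the unfolded protein response, ranked 11, 9 and 7 of 18. The well had 738532 counts, of which 74.1% were protein coding, within the range of its group. Replicate 2 held the highest HSPA1A and HSPA1B of the group (74.6 and 287 CPM) and the second highest HSPA5 (1664 CPM).

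**Figure D4:**
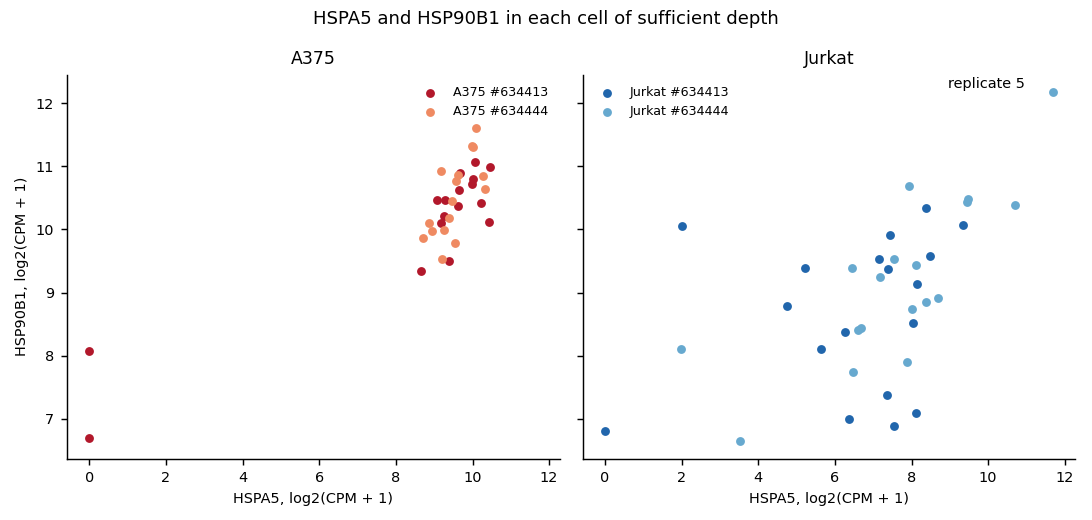
HSPA5 (horizontal) and HSP90B1 (vertical) as log2(CPM + 1) in each deep well, A375 on the left and Jurkat on the right, coloured by kit. The Jurkat cell at the upper right, replicate 5 of kit #634444, holds 3313 CPM of HSPA5 and 4626 CPM of HSP90B1.

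The other genes of these pathways were taken from fixed lists of 102 genes, 90 of which had at least 100 counts with both kits, and 10 of these were lower and 11 higher in A375 with both kits, beside the 14.5% and 22.5% of all genes. Of 9 further stress-inducible genes, 0 were lower and 1 higher, SERPINH1, the collagen chaperone HSP47, at 6.45-fold and 11.7-fold. Among 4 heat shock factors and their regulators, HSF1 was 2.85-fold and 2.75-fold lower and HSF2 3.53-fold and 2.13-fold lower in A375. Of 20 cytosolic co-chaperones 4 were lower, namely HSPA14 (5.31-fold and 2.22-fold), FKBP5 (3.74-fold and 2.76-fold), BAG1 (2.30-fold and 2.24-fold) and STIP1 (2.05-fold and 2.19-fold), the last of which links HSP70 to HSP90, and 0 were higher. Of the 14 subunits of TRiC, which folds actin and tubulin, and of prefoldin, TCP1 (3.56-fold and 5.43-fold), CCT8 (2.45-fold and 3.03-fold) and CCT7 (2.60-fold and 2.65-fold) were lower and PFDN2 (at the limit of 2-fold and 2.48-fold) was higher. The median log2 ratios of these 4 lists were 0.57 and -0.28, -0.55 and -0.29, -0.36 and -0.70, and -0.53 and -0.51, so only the first changed sign between the kits.

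Of 21 endoplasmic reticulum genes, 1 was lower, SDF2L1 (4.999-fold and 7.41-fold), and 3 were higher in A375, namely HERPUD1 (6.47-fold and 2.92-fold), DNAJB9 (3.83-fold and 4.06-fold) and DDIT3 (3.66-fold and 2.33-fold), the transcription factor CHOP. The median log2 ratio of that list was 0.83 and 0.45, and HSP90B1 was at 1.45 and 0.92. Of 11 mitochondrial chaperones and proteases, 0 were lower and 1 was higher, GRPEL2 (3.49-fold and 2.56-fold), with a list median of 0.25 and 0.23. The log2 ratios of HSPE1 were -1.99 and -1.81 and those of HSPD1 -0.78 and -0.99. A single small heat shock gene outside the 10 passed the count minimum and was not 2-fold apart. The immediate early genes, which are transcribed within minutes of a stimulus, had 5 of 10 members higher in A375 with both kits and medians of 2.33 and 1.57. IER3 was 45.6-fold and 22.98-fold higher, ATF3 8.19-fold and 35.6-fold, and FOS 11.1-fold and 6.003-fold. FOSB was at 0 in Jurkat with kit #634413 and at least 676-fold higher in A375 when set against 3 counts over the group, and with kit #634444 it was 14.5-fold higher (107 against 7.37 CPM). JUN went the other way, at 8.07-fold and 1.71-fold lower in A375, and BTG2 changed sign between the kits. JUNB, IER2 and DUSP1 were higher in A375 without reaching 2-fold with both kits. The part of the immediate early genes in the differences of the 10 genes was not tested.

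**Figure D5:**
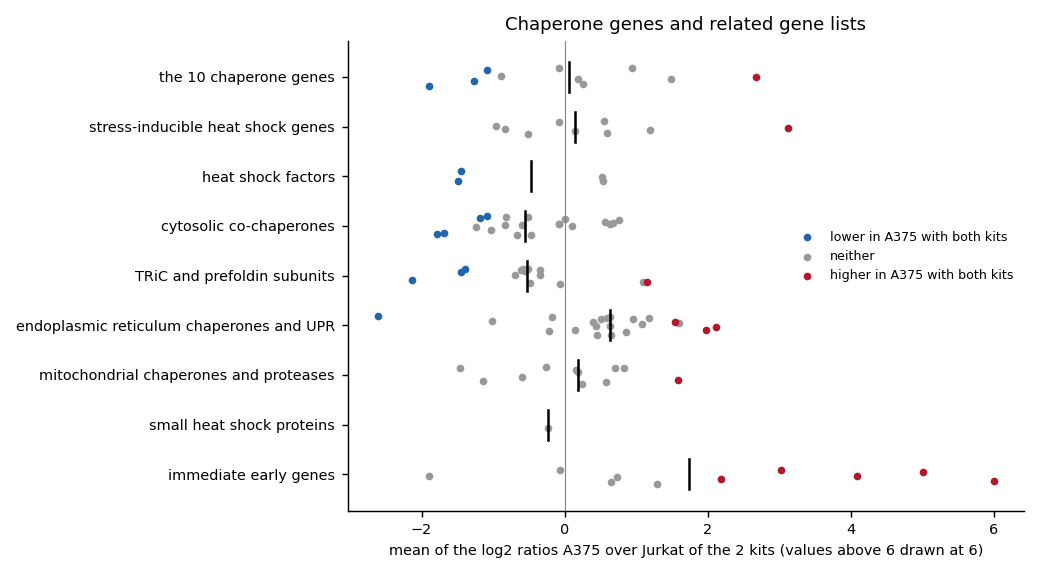
Mean of the log2 ratios of A375 over Jurkat of the 2 kits (horizontal) for each gene of the 10 and of 8 related lists (rows). Blue and red points were at least 2-fold lower or higher in A375 with both kits, grey points were not, black bars are list medians, and FOSB, which was at 0 in 1 group, is drawn at 6. The immediate early genes have the median furthest to the right, with JUN below 0, and the co-chaperone and TRiC lists have medians below 0.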

How the data were processed

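The authors trimmed paired-end reads with cutadapt and quantified Ensembl v91 transcripts with ERCC sequences by Kallisto 0.43.1 in stranded mode. They deposited expected counts (Kallisto's estimated counts, not normalized) and TPM for 200471 targets in each of 78 wells. The build is hg38.

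Transcripts were matched to genes with GENCODE v44 (195850 of 200206 Ensembl transcripts matched) and summed per gene. Counts were divided by the protein coding total of the well or group (CPM). Ratios used a prior of 0.5 counts, and at least 2-fold was taken as apart, for genes with at least 100 counts in the groups compared. Intervals are exact Poisson or conditional binomial intervals. With 1 sample per group no test was run. Genes outside the 10 were named where they were 2-fold apart with both kits, up to 4 per list by size, and as the 5 nearest by rho to DNAJB1, HSPA8, HSPD1 and HSPA5, of which 1 gene is not reported here. The members and lists were chosen with earlier results of these data known. Leaving out wells with few protein coding counts and Jurkat replicates 2 and 5, restricting the co-variation to the 8 members that pass its count filter, and summing HSPA1A and HSPA1B, were added after seeing the data. Doublets were not examined. The ratio procedure was tested on simulated data. Python 3.11.15, numpy 2.4.6, pandas 2.3.3, scipy 1.17.1 and matplotlib 3.10.9 were used.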

Additional observations from a re-analysis of the deposited data

How the results depend on the processing

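No gene called 2-fold apart changed direction under the alternatives run. The ratio of stress-induced to constitutive genes has no call, and the order of its medians between the lines turned without HSP90AA1. Of 174 recomputed counts and medians, 147 stayed within 1.5-fold (counts) or within the spread between groups and 27 did not. The counts that follow are set against the main counts of the same genes only. The share of all genes under each setting is not given, so they do not set the members apart from other genes. By the mean TPM, 1 member was higher with kit #634444 in Jurkat. By the mean of wells, 2 members were higher in A375 with kit #634444, 1 was lower and 1 higher between kits in A375, 1 was higher between kits in Jurkat, and 16 list genes were lower. By the median of wells, 5 members were lower and 3 higher in A375 with kit #634444, 3 were higher with both kits, and 1 was lower between kits in A375. At 1.5-fold, 2 members were higher with kit #634444 and 2 with both kits, 2 were lower between kits in A375, and 20 list genes were lower and 22 higher, since the limit itself is looser. With HSPA1A and HSPA1B as 1 gene, 0 were higher with kit #634444 or with both kits, and 1 was in each when Jurkat replicate 2 of kit #634444 was also left out (2.83-fold). Leaving out 1 well at a time gave 2 to 3 lower and 3 higher members with kit #634413, 3 to 4 lower and 1 to 2 higher with kit #634444, and 1 to 3 higher between kits in Jurkat.

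The median rho of the members in A375 with kit #634413 was 0.5002 by Pearson's r on the log scale (all pairs 0.349), 0.480 over all wells (0.349), 0.279 in TPM (0.242), 0.128 with wells thinned to 11215 counts (0.037) and 0.0179 without the wells with few protein coding counts (0.00717). In A375 with kit #634444 it was 0.594 over all wells (0.464), 0.324 in TPM (0.115) and 0.293 over the 8 members that pass the count filter (0.0104), and in Jurkat with kit #634444 0.172 in TPM (0.0175), 0.364 over the 8 members (0.00516) and 0.135 without replicate 5 (0.0049). Except for the thinning, which removes counts, the cause was not tested. Depth limits low genes most, as 3 counts in the least covered deep well equal 267 CPM.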
